A study of Mus musculus with 9 samples.

Results

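The genes described here are those of the bone-forming cell: the transcription factors Runx2 and Sp7 (osterix), the chains of type I collagen, Col1a1 and Col1a2, the matrix protein gene Sparc (osteonectin), the osteoblast membrane protein gene Ifitm5 and Smpd3, which encodes neutral sphingomyelinase. They were taken by symbol, with every probe set that the platform annotation pairs with that symbol. Of the 7 genes, 6 had a probe set there, 13 probe sets in all out of 45101 on the array, and Runx2 is not analysed here. RNA came from mouse embryos at embryonic day 16.5, with 3 arrays each of the condyle of the temporomandibular joint (the head of the lower jaw), of the fossa (its socket on the skull) and of the whole body. The labels record laser capture microdissection of fresh frozen tissue for all 9 samples, the whole body samples included. They name no strain, genotype or agent, and give no sex. The submitters call the samples biological replicates without saying which embryo gave which sample, so the p-values measure only the spread between these samples.

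Osteoblasts arise from mesenchyme under Runx2, and Sp7 acts after it and is needed for bone to form. The cells then secrete type I collagen, a triple helix of chains from Col1a1 and Col1a2 that makes up most of the organic matrix of bone. Sparc binds collagen and calcium in that matrix, Ifitm5 marks mineralizing osteoblasts, and loss of Smpd3 in mice gives fragile, poorly mineralized bone. Mutations in COL1A1, COL1A2, SPARC, SP7 and IFITM5 cause forms of osteogenesis imperfecta in people. Type I collagen and Sparc are also made by fibroblasts of skin, tendon and other connective tissue, so they are not restricted to bone.

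The RefSeq promoter table of build GRCm38.p6 held 4 of the 7 genes. The 250 bases before the start are shown for the 3 of them with a probe set, Col1a2, Sparc and Ifitm5. The other was Runx2, which is not analysed here. For the 3 genes shown, all 6 joint arrays lay above all 3 whole body arrays. For Ifitm5 some of these values were at background. Capitals mark the searched motifs that a script found, each sought on both strands. The windows are chr6:4505368-4505617 (plus strand) for Col1a2, chr11:55420081-55420330 (minus strand) for Sparc and chr7:140950244-140950493 (minus strand) for Ifitm5.
Col1a2: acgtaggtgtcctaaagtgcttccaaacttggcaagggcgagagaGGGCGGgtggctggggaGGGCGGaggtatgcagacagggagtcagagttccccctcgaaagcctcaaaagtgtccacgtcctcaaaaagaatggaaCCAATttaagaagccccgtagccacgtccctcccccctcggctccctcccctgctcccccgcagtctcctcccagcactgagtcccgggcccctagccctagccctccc
Sparc: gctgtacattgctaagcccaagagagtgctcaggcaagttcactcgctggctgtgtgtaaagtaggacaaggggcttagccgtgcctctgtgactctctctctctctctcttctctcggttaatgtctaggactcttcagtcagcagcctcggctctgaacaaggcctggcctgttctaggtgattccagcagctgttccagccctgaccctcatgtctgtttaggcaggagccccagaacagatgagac
Ifitm5: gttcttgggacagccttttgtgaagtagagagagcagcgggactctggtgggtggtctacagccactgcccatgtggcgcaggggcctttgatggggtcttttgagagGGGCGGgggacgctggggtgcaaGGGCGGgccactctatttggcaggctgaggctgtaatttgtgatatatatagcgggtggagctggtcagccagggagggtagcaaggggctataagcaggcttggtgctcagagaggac
Col1a2 held a CCAAT box, from 109 to 105 bases before the start, and 2 GC boxes (GGGCGG), the nearer from 188 to 183 bases before it. Ifitm5 held 2 GC boxes, from 142 to 137 and from 119 to 114 bases before the start. Of 32851 windows of this length, 33.8% held CCAAT and 32.7% held GGGCGG on either strand. The letters TGTGGT, the core bound by Runx factors (in 14% of windows), TATAAA (12.4%) and TAATTA, a homeobox core (4.84%), were not found in these 3 windows. A match is a description of the letters, not evidence of binding.

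Values are intensities on the log2 scale, and a probe set was above background on an array when it exceeded the highest of 27 bacterial control probe sets there. A gene is represented by its brightest probe set, and the fit tested 18193 genes on all 9 arrays. Fossa array 1 stood apart, with 30.3% of probe sets above background against 37.4% to 46.9% on the other 8 arrays. The fossa arrays also differed in markers of epithelium, whose 8 genes summed to 15.32, 10.77 and 15.03 (log2) on fossa arrays 1, 2 and 3, and condyle array 1 differed in markers of osteoclasts, as given below. The labelled tissues carried cartilage: each of 8 chondrocyte markers exceeded the limit on the 3 condyle arrays, and 7 did on the 3 fossa arrays, and 6 of 8 were higher than in the whole body in either tissue. Of the other osteoblast markers, Ibsp, a bone matrix protein gene, read 12.49, 9.67 and 10.03 in condyle, 10.39, 13.46 and 12.27 in fossa and 9.52, 9.71 and 9.34 in whole body. Alpl, the alkaline phosphatase gene of mineralizing cells, read 4.77, 3.25 and 3.26 in condyle, 3.62, 4.01 and 4.13 in fossa and 3.34, 3.29 and 2.94 in whole body. Bglap, the osteocalcin gene, is not analysed here.

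Every one of the 6 genes had a higher mean in condyle and in fossa than in the whole body. Type I collagen passed the test: Col1a1 was 4.97-fold higher in condyle and 7.27-fold higher in fossa, and Col1a2 was 5.87-fold higher in fossa. Sp7, Sparc, Ifitm5 and Smpd3 did not pass against the whole body in either tissue, and no gene passed between condyle and fossa. Thus 1 of 6 genes was called higher in condyle, where 9.34% of all genes were, and 2 of 6 in fossa, where 3.99% were. By unadjusted p under 0.05, 4 of 6 differed from the whole body in each tissue, as did 5112 (condyle) and 6062 (fossa) of all 18193 genes. In the moderated F test for any difference among the 3 groups 2 of 6 were called, Col1a1 (adjusted p = 0.0209) and Col1a2 (adjusted p = 0.0175), where 28.1% of all genes were. The 6 genes had a median log2 difference of 1.72 in condyle and 1.92 in fossa, beside -0.03 and -0.11 over all genes. Markers of other tissues also differed from the whole body, where 3.84% of all genes were called lower in condyle and 15.6% in fossa. Red cell markers were lower for 5 of 7 in condyle and 6 of 7 in fossa (medians -4.86 and -5.47). Leukocyte markers were lower for 3 and 4 of 8 (medians -0.85 and -0.55). Skeletal muscle markers were lower for 1 of 8 in each (medians -1.43 and -1.21), in fossa not above the share of all genes. No marker of the 3 lists was called higher. The summed red cell markers were 8.08 to 9.47 in condyle, 6.76 to 8.88 in fossa and 13.80 to 13.87 in whole body, with Hba-x at background in fossa. Their part in the results was not tested.

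**Figure D1:**
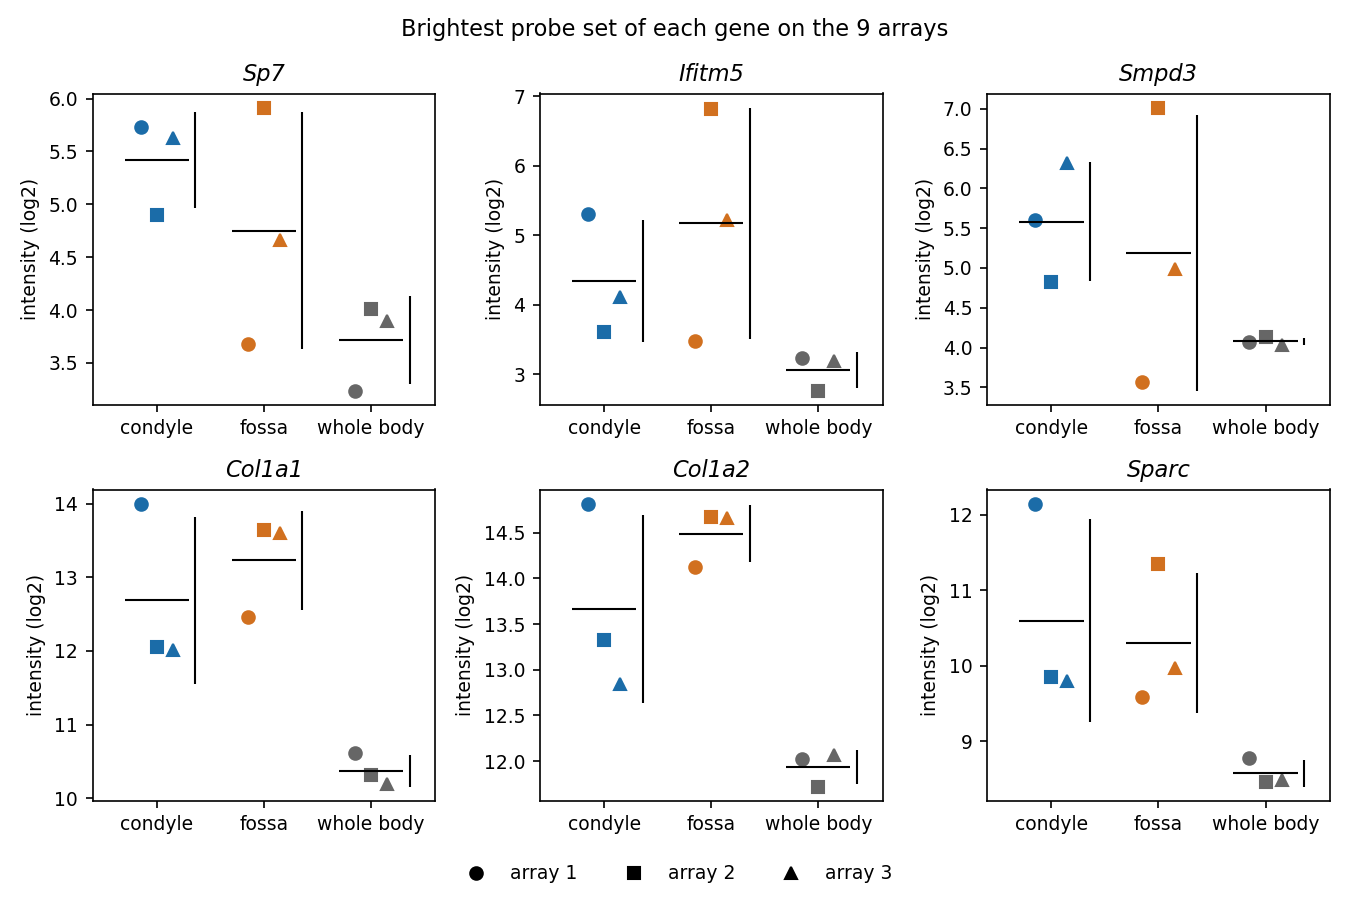
Intensity (log2) of the brightest probe set of each of the 6 genes, 1 point per array, with the mean (horizontal line) and SD (vertical line) of 3 arrays per group. Symbols give the array number, which the labels do not describe as pairing arrays across groups. The vertical axes differ between panels and do not start at 0. For Col1a1, Col1a2, Sparc and Ifitm5 the whole body arrays lie below all others. Fossa array 1 falls within the whole body range for Sp7 and below it for Smpd3. The whole body range is the narrowest in every panel, though by little for Sp7 (0.77 against 0.83 in condyle). Fossa array 2 is the highest and fossa array 1 the lowest of the fossa arrays in every panel.

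Sp7, the zinc finger factor that commits cells to the osteoblast fate, had 1 probe set, above background on all 9 arrays. It read 5.73, 4.90 and 5.63 in condyle, 3.68, 5.91 and 4.66 in fossa and 3.24, 4.01 and 3.90 in whole body. All condyle arrays lay above the whole body arrays, whereas fossa array 1 fell within the whole body range. The difference from whole body was 1.70 ± 0.56 (SE) in condyle (adjusted p = 0.0931, 95% interval 0.40 to 3.01) and 1.04 ± 0.56 in fossa (adjusted p = 0.242, interval -0.27 to 2.35), so neither passed. The condyle difference passed without fossa array 1 (adjusted p = 0.0443) or fossa array 2 (adjusted p = 0.0349), which leave its size as it was and change the spread that the fit pools over groups. It also passed with 75th percentile centring (adjusted p = 0.0473) and with only condyle and whole body fitted (adjusted p = 0.0321), where Col1a1 missed (adjusted p = 0.0727). The fossa difference was 1.57 without fossa array 1 and 0.46 without fossa array 2.

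Ifitm5, a small membrane protein of osteoblasts, also had 1 probe set. It read 5.31, 3.61 and 4.11 in condyle, 3.48, 6.81 and 5.22 in fossa and 3.23, 2.77 and 3.20 in whole body. All joint arrays lay above the whole body arrays, of which 1 exceeded its background limit, as did 3 condyle and 2 fossa arrays. Ifitm5 was at least 2.16-fold higher in condyle by these means (adjusted p = 0.336, 95% interval of the log2 difference -0.66 to 3.21). In fossa the same calculation gave 3.83-fold (adjusted p = 0.122, interval 0.17 to 4.04). That is not a strict bound, since fossa array 1 was itself under its limit. Neither difference passed. With a common floor at the highest background limit the log2 differences of Ifitm5 were 0.82 in condyle and 1.66 in fossa. Without fossa array 1 its fossa difference was 2.95 (adjusted p = 0.0279) and without fossa array 2 it was 1.29 (adjusted p = 0.25), against 2.11 with all arrays. Without condyle array 1 the condyle difference was 0.79 against 1.28.

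Smpd3, whose product releases ceramide from sphingomyelin, had 3 probe sets. The brightest (1438665_at) read 5.60, 4.82 and 6.32 in condyle, 3.57, 7.02 and 4.98 in fossa and 4.07, 4.13 and 4.03 in whole body. The condyle arrays lay above the whole body arrays, while fossa array 1 lay below all of them and fossa array 2 was the highest of the 9. The differences from whole body were 1.51 ± 0.82 (SE, adjusted p = 0.272, 95% interval -0.42 to 3.44) in condyle and 1.11 ± 0.82 (adjusted p = 0.388, interval -0.81 to 3.04) in fossa. The fossa difference was 1.92 without fossa array 1 and 0.20 without fossa array 2. The probe set 1422779_at was at background on all arrays. The remaining one, 1450748_at, read 2.45, 2.42 and 2.51 in condyle, 3.02, 3.35 and 2.93 in fossa and 2.56, 2.55 and 2.48 in whole body. In a fit across all 45037 probe sets that are not array controls, it passed between condyle and fossa, where 16% of all probe sets were called, by -0.64 ± 0.10 (adjusted p = 0.00904), and between fossa and whole body, by 0.56 ± 0.10 (adjusted p = 0.012). Only fossa array 2 exceeded its background limit there, so these differences lie at the edge of detection, and the brightest probe set had the opposite sign between condyle and fossa.

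Col1a1, the chain present in the larger share in type I collagen, read 14.00, 12.05 and 12.01 in condyle, 12.46, 13.64 and 13.60 in fossa and 10.61, 10.31 and 10.19 in whole body by its brightest probe set (1455494_at). All 6 joint arrays exceeded all whole body arrays by more than 1 log2 unit, and condyle array 1 stood well above the other condyle arrays. The difference was 2.31 ± 0.58 (SE, adjusted p = 0.0426, 95% interval 0.94 to 3.69) in condyle and 2.86 ± 0.58 (adjusted p = 0.0152, interval 1.49 to 4.23) in fossa. The condyle difference missed the threshold with quantile normalization (adjusted p = 0.0586) and without any single array other than condyle array 1 or fossa array 1 (adjusted p from 0.0575 to 0.112), and the fossa call without fossa array 3 (adjusted p = 0.0547). The second probe set (1423669_at) gave larger differences, 3.45 ± 1.03 in condyle (adjusted p = 0.108) and 3.32 ± 1.03 in fossa (adjusted p = 0.0728), in the fit across all probe sets. It read 10.22, 7.05 and 6.44 in condyle, 6.92, 8.57 and 7.82 in fossa and 4.76, 5.14 and 3.46 in whole body, so all joint arrays again exceeded the whole body arrays.

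Col1a2, the partner chain, read 14.82, 13.33 and 12.84 in condyle, 14.12, 14.67 and 14.67 in fossa and 12.02, 11.72 and 12.06 in whole body (1450857_a_at). The fossa arrays were tight, with an SD of 0.31, while the condyle arrays had an SD of 1.03, with array 1 above all fossa arrays and the other two below them. The fossa difference passed at 2.55 ± 0.47 (SE, adjusted p = 0.011, 95% interval 1.43 to 3.67) and the condyle difference did not at 1.73 ± 0.47 (adjusted p = 0.0561, interval 0.61 to 2.85). Without condyle array 1 the difference between condyle and fossa was -1.40 (adjusted p = 0.0191), past the threshold, against -0.83 (adjusted p = 0.28) with it. The probe sets 1423110_at and 1446326_at gave 1.86 ± 0.78 and 2.15 ± 1.23 in condyle, and 2.31 ± 0.78 and 2.44 ± 1.23 in fossa, none past the threshold (adjusted p = 0.209, 0.292, 0.0927 and 0.226).

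Sparc, the collagen-binding matrix protein gene, read 12.15, 9.85 and 9.80 in condyle, 9.59, 11.35 and 9.97 in fossa and 8.78, 8.46 and 8.49 in whole body (1448392_at). Every joint array lay above the whole body arrays, and condyle array 1 and fossa array 2 stood out within their groups. The differences were 2.02 ± 0.71 (SE, adjusted p = 0.115, 95% interval 0.35 to 3.70) in condyle and 1.73 ± 0.71 (adjusted p = 0.139, interval 0.05 to 3.41) in fossa. The condyle difference was 1.25 without condyle array 1, and the fossa difference passed without that array (adjusted p = 0.0468). The probe set 1416589_at read 10.70, 9.03 and 6.31 in condyle, 7.91, 10.57 and 10.12 in fossa and 7.15, 8.45 and 7.57 in whole body. There the groups overlapped, and condyle array 3 was the lowest of all 9. The probe set 1458204_at was at background on all arrays.

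**Figure D2:**
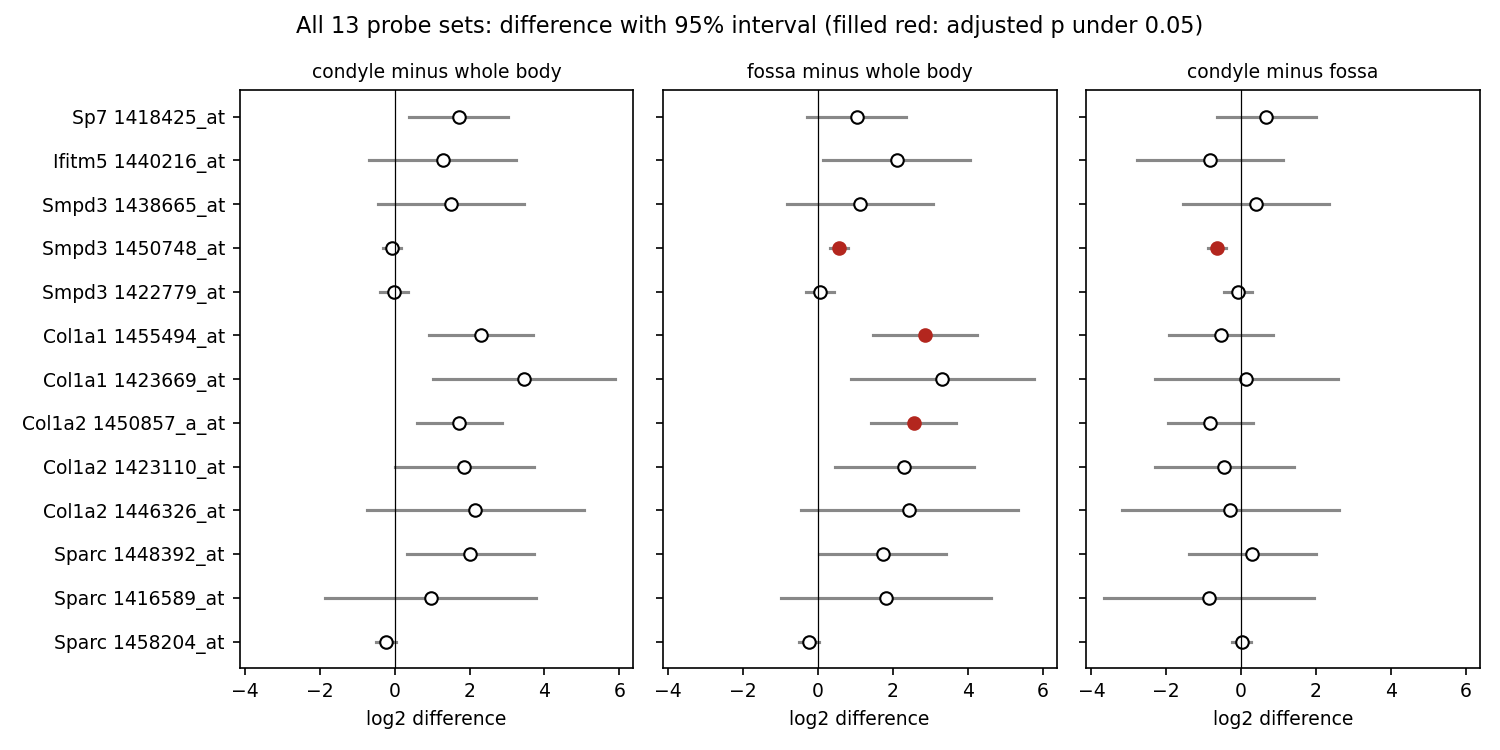
Log2 difference (point) and 95% interval (line) of each of the 13 probe sets in the fit across all probe sets, 1 panel per comparison; filled points passed adjusted p under 0.05. Of the 10 probe sets above background on 3 or more arrays, all lie to the right of 0 against the whole body in both tissues; the 3 others, with short intervals near 0, are the dim probe sets of Smpd3 and Sparc.

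In that fit across all probe sets, 0 of the 13 were called in condyle against whole body, so Col1a1 missed there (adjusted p = 0.0698), while 6.19% of all 45037 were called in either direction. By unadjusted p under 0.05, 6 of the 13 differed. That count was not taken over all probe sets, and in the fit of genes 5112 of 18193 differed by it. In fossa, 3 were called higher (the brightest of Col1a1 and Col1a2, and 1450748_at of Smpd3) against 3.69% of all probe sets called higher and 16.8% in either direction.

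All 6 genes had their 3 condyle arrays above the 3 whole body arrays, which 19.8% of all genes did, and 4 of 6 (Col1a1, Col1a2, Sparc and Ifitm5) had the 3 fossa arrays above them, which 11.1% did. These 4 thus had all 6 joint arrays above the whole body, as had 5.27% of all genes. For Ifitm5 only 2 of 3 fossa arrays and 1 of 3 whole body arrays exceeded the background limit, so its separation there lies at the edge of detection. After quantile normalization the counts were 6 and 5, and after centring each array on its 75th percentile both were 5. The whole body serves both comparisons, so they are not independent of each other. In bulk tissue, a larger share of osteoblasts, a larger share of other cells with these transcripts and more RNA per cell cannot be told apart.

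Between condyle and fossa none of the 6 genes was called by limma, while 18.9% of all genes were called. By unadjusted p under 0.05 the count was also 0 of 6, against 6102 of all 18193 genes. None had condyle and fossa arrays that did not overlap, against 49.7% of all genes. The sign was divided: Sp7 (0.67 ± 0.56, SE), Smpd3 (0.39 ± 0.82) and Sparc (0.29 ± 0.71) had the higher mean in condyle, and Col1a1 (-0.55 ± 0.58), Col1a2 (-0.83 ± 0.47) and Ifitm5 (-0.83 ± 0.82) in fossa. The positive signs flip with the scaling: after quantile normalization all 6 differences were negative, with Sp7 at -0.03, Smpd3 at -0.29 and Sparc at -0.31. The 95% intervals were wide, from -1.94 to 0.29 for Col1a2 and from -2.77 to 1.11 for Ifitm5, so differences of several fold were not excluded at this number of arrays. The upper parts of the arrays were not aligned as deposited: among genes called between condyle and fossa, 88.8% were higher in condyle, against 58.8% after quantile normalization and 10% after centring on the 75th percentile. The same shares were 70.9%, 50.5% and 17% for condyle against whole body, and 20.4%, 47.1% and 44.5% for fossa against whole body.

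**Figure D3:**
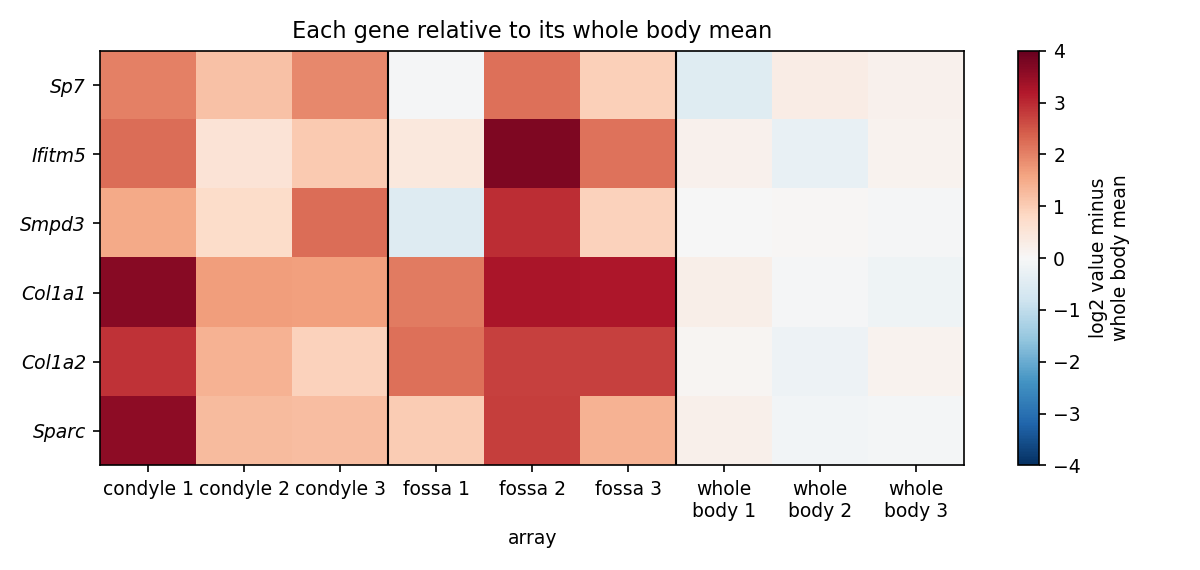
Colour map of the log2 value of each of the 6 genes (brightest probe set, top to bottom) on each of the 9 arrays (left to right) minus that gene's whole body mean, red for above and blue for below. Condyle array 1 is darkest for Col1a1 and Sparc and fossa array 2 for Ifitm5, while fossa array 1 is pale for Sp7, Ifitm5 and Smpd3 and red for Col1a1 and Col1a2.

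Within fossa the 6 genes shared an order of arrays, and within condyle they did not. Fossa array 2 was the highest and fossa array 1 the lowest fossa array for all 6, an order that 25.1% of the 11983 genes above background on 3 or more arrays had. Condyle array 1 was the highest condyle array for 5 of 6, all but Smpd3, against 33% of these genes, and the lowest was array 2 for 3 genes and array 3 for the other 3. The range within fossa was 3.44 for Smpd3, 3.33 for Ifitm5 and 2.23 for Sp7, but 1.18 for Col1a1 and 0.55 for Col1a2. Within condyle it was 2.35 for Sparc, 2.00 for Col1a1 and 1.97 for Col1a2, but 0.83 for Sp7. The median of these 11983 genes spanned 0.67 in fossa and 0.56 in condyle, and 4 of 6 genes exceeded their 90th percentile in each tissue (1.72 and 1.58). In the whole body the 6 ranges had a median of 0.38, below the median of 0.54 over the 11983 genes, and none exceeded the 90th percentile. The collagen chains and Sparc thus had their widest range among condyle arrays, and Sp7, Ifitm5 and Smpd3 among fossa arrays.

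**Figure D4:**
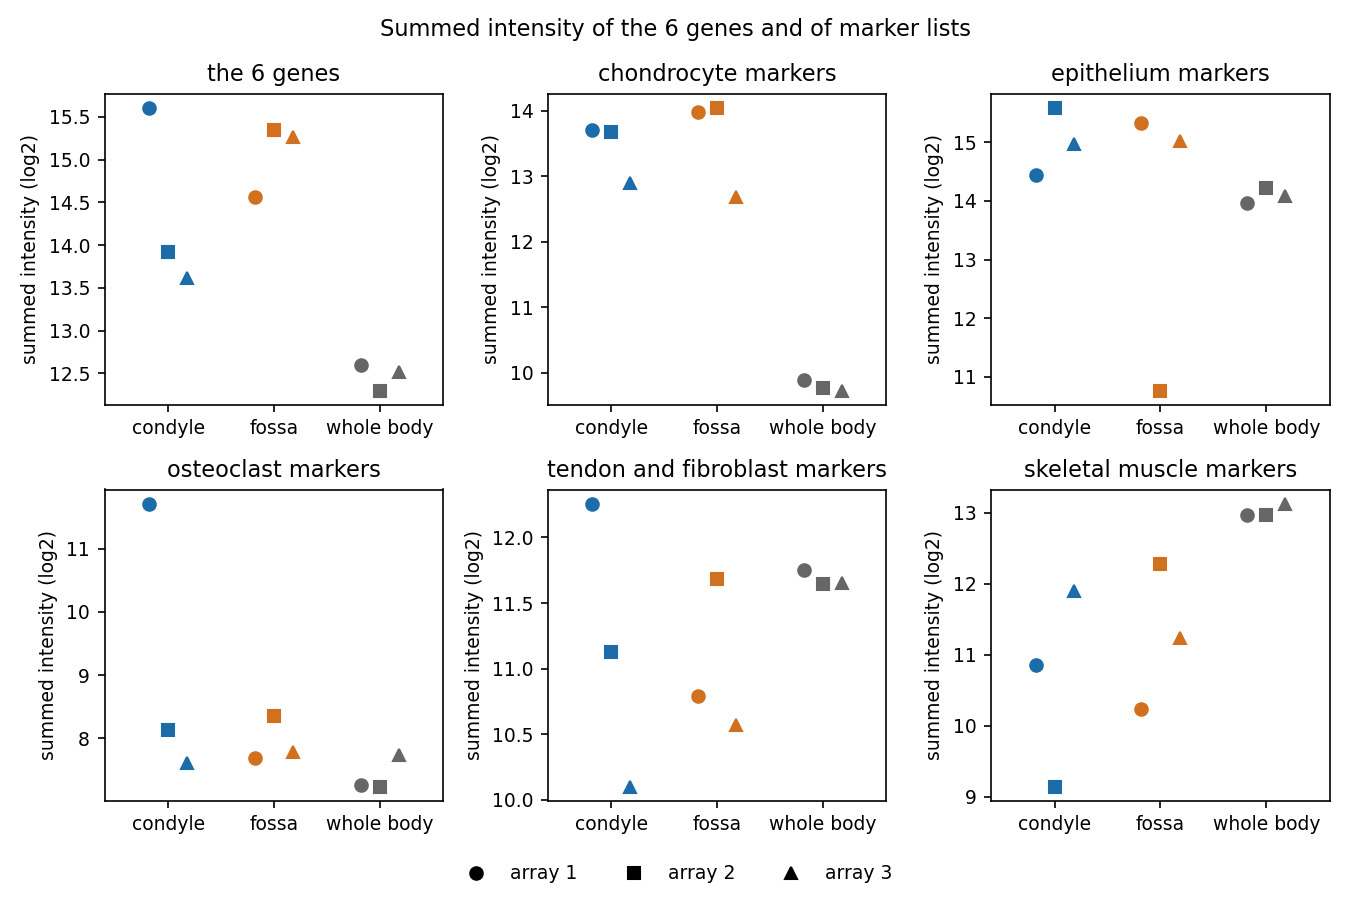
Summed intensity (log2) on each array of the 6 genes and of 5 marker lists of 8 genes each, by group, with symbols for the array number; the vertical axes differ and do not start at 0. The sums are of linear intensities, so Col1a1 and Col1a2 make up most of the sum of the 6 genes. Fossa arrays 2 and 3 are alike for that sum (15.35 and 15.27) and unlike for epithelium markers (10.77 and 15.03). Taken singly, Smpd3 (7.02 and 4.98), Ifitm5 (6.81 and 5.22), Sparc (11.35 and 9.97) and Sp7 (5.91 and 4.66) differed between these 2 arrays. Condyle array 1, the highest for the summed 6 genes, is the highest for osteoclast and for tendon and fibroblast markers.

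Some marker lists of other cell types followed the order of these arrays and others did not. On fossa arrays 1, 2 and 3, skeletal muscle markers summed to 10.24, 12.28 and 11.24 and neuron markers to 8.06, 10.99 and 9.31, the order of the 6 genes. Markers of red cells (6.76, 8.88 and 8.49), osteoclasts (7.69, 8.36 and 7.78) and endothelium (6.37, 7.31 and 6.72) had that order too. Of the endothelium markers, Pecam1, Tie1 and Emcn were at background in fossa. Fossa array 3 was the lowest for chondrocyte (13.99, 14.05 and 12.69), leukocyte (9.98, 10.70 and 9.79) and tendon and fibroblast markers (10.79, 11.69 and 10.57). Epithelium markers had the reverse order. Leukocyte markers summed to 11.55 on condyle array 1 against 8.05 and 8.39 on the other condyle arrays. Skeletal muscle markers summed to 10.85, 9.14 and 11.90 on condyle arrays 1, 2 and 3, the order of Smpd3 there. Neuron markers summed to 10.87 and 10.80 on condyle arrays 1 and 3 and were lowest on array 2. Sp7 and Ifitm5 had that order in condyle, whereas Col1a1, Col1a2 and Sparc were lowest on condyle array 3. The 3′ minus 5′ signal of Gapdh, a sign of RNA quality, was 3.69 on fossa array 1, the lowest of the 9, and 4.97 to 6.86 elsewhere, and that of Actb was 4.79 against 5.74 to 6.71. The 8 osteoclast markers summed to 11.72 on condyle array 1, against 8.13 and 7.60 on the other condyle arrays, 7.69 to 8.36 in fossa and 7.23 to 7.74 in whole body. Mmp9, a protease gene of osteoclasts, read 10.13 on condyle array 1 and at most 5.62 elsewhere, and Ctsk, the cathepsin K gene, 10.77 against at most 7.60. Of the 8, Dcstamp and Oscar were at background on every array. The 8 tendon and fibroblast markers can share type I collagen with bone. They summed to 12.26 on condyle array 1 and 11.69 on fossa array 2, and to 10.10 to 11.13 on the other joint arrays. In whole body the sum was 11.64 to 11.75. Scx was at background in condyle and whole body. The epithelium markers summed to 14.44 on condyle array 1 and 10.77 on fossa array 2, and 14.97 to 15.59 on the other joint arrays, fossa array 3 included, and 13.97 to 14.23 in whole body, with no marker at background on all 3 arrays of a group. The 18S ribosomal RNA control, read as the mean log2 value of its probe sets, was 9.63, 9.32 and 5.86 in condyle and 6.91, 9.52 and 8.56 in fossa, against 13.22 to 13.47 in whole body. The part of these values in the results was not tested. Without condyle array 1 the median difference of the 6 genes from whole body was 1.37 in condyle, with Col1a1 and Col1a2 called, and without fossa array 2 it was 1.25 in fossa, with 2 genes called.

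Ratios within an array, which do not depend on its scale, were compared for the 15 pairs of the 6 genes in 45 tests, of which 10 reached the smallest p: 3 for condyle against whole body, 4 for fossa against whole body and 3 for condyle against fossa. Ratios with Ifitm5, among them some of these 10, are not described, since fossa array 1 and 2 whole body arrays were under the background limit for it. The pairs share genes, so the tests are not independent, and the smallest adjusted p of this exact permutation test was 0.45. The log2 value of Col1a1 minus that of Col1a2 was -0.81, -1.28 and -0.84 in condyle, -1.66, -1.04 and -1.06 in fossa and -1.41, -1.41 and -1.87 in whole body. It was thus higher in condyle than in whole body on all arrays, by 0.59 (two-sided exact permutation p = 0.1, the smallest that 3 against 3 arrays allow, adjusted p = 0.45 over 45 tests), and overlapped in fossa (exact p = 0.3). Col1a1 also stood further above Sparc in fossa, at 2.87, 2.29 and 3.63, than in condyle, at 1.85, 2.20 and 2.21, or in whole body, at 1.83, 1.85 and 1.71 (exact permutation p = 0.1 and 0.1, adjusted p = 0.45). In fossa against whole body the log2 value of Sp7 minus that of Col1a1 was also lower, by -1.82 in the mean, and that of Col1a1 minus Smpd3 higher, by 1.75, without overlap (exact permutation p = 0.1, adjusted p = 0.45). On fossa array 1, Sp7 (3.68) and Smpd3 (3.57) lay close to the background limit of 3.52, and the part of this in the ratios was not tested. Zero in such a ratio has no meaning of its own, since each probe set has its own response. This permutation test cannot pass the threshold with 3 against 3 arrays.

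The genes with profiles nearest to each of the 6 were found by the root mean square difference of log2 values over the 9 arrays, each gene centred on its own mean, among 11502 candidates. The arrays fall into 3 groups and share depth and scale, so this is a description. Col1a1 had Col1a2 as its nearest gene (0.34), followed by the netrin receptor gene Unc5c (0.35) and the vesicle coat gene Copz2 (0.42). Col1a2 had Sec16b (0.34), Col1a1 (0.34) and Copz2 (0.35), of which Sec16b encodes a protein of sites where cargo leaves the endoplasmic reticulum. Sparc lay nearest to the fibronectin gene Fn1 (0.32), Islr (0.35) and the basement membrane collagen gene Col4a2 (0.39). Sp7 lay nearest to Flot2 (0.25), Nek6 (0.30) and Prex1 (0.32), Ifitm5 to the lysophosphatidic acid receptor gene Lpar3 (0.31), the Wnt inhibitor gene Frzb (0.40) and Snhg11 (0.42), and Smpd3 to Hivep3 (0.36), Prex1 (0.36) and Arfgef3 (0.36). Among the 6 genes, Sp7 ranked 8th for Smpd3 (0.43), whereas Col1a1 and Smpd3 were far apart (1.13).

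**Figure D5:**
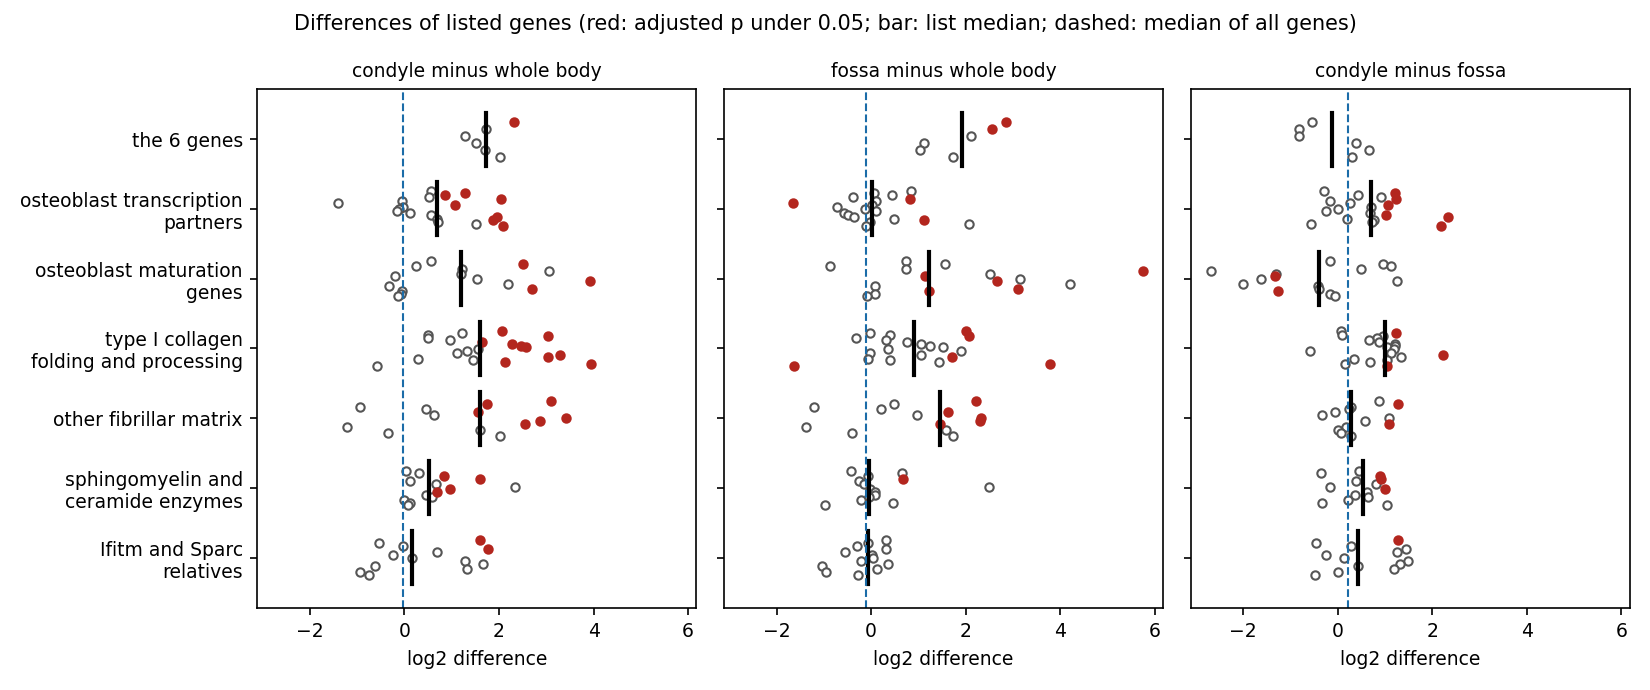
Log2 difference of each measured gene (points) of the 6 genes and of 6 related lists, with the list median (bar) and the median of all genes (dashed line), 1 panel per comparison; red points passed adjusted p under 0.05. Against whole body the medians of collagen processing genes and of fibrillar matrix lie to the right of the dashed line in both tissues, at 1.60 and 1.59 in condyle and at 0.91 and 1.47 in fossa.

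The counts of the lists below stand beside the shares of all genes called: 9.34% higher and 3.84% lower in condyle, 3.99% higher and 15.6% lower in fossa (both against whole body), and 16.8% higher and 2.13% lower in condyle against fossa. Of 20 measured genes that fold and process type I collagen, 10 were higher and 0 lower in condyle, and 4 higher and 1 lower (Tmem38b, an endoplasmic reticulum ion channel gene) in fossa, with medians of 1.60 and 0.91. After quantile normalization the counts were 7 higher and 1 lower in both tissues. Which collagens these genes served here was not tested, and 6 of 8 chondrocyte markers were also higher in each tissue. Serpinh1, the collagen chaperone HSP47, was higher by 3.95 ± 0.39 (SE) in condyle and 3.79 ± 0.39 in fossa, and Crtap, a subunit of the prolyl 3-hydroxylase complex, by 3.04 ± 0.55 and 2.07 ± 0.55. The lysyl hydroxylase gene Plod2 was higher by 3.30 ± 0.47 in condyle, and Plod3 was at least 5.50-fold higher there. Adamts3, a procollagen N-proteinase gene, was higher by 2.00 ± 0.35 in fossa, and Pcolce, the enhancer of C-propeptide removal, differed by 1.91 ± 0.64 there (adjusted p = 0.0809). Between condyle and fossa 3 of 20 were higher in condyle, a share close to that of all genes: Plod2 by 2.24 ± 0.47, Bmp1 by 1.23 ± 0.32 and Tmem38b at least 1.93-fold (above background on 2 fossa arrays), of which Plod2 and Bmp1 were not called after quantile normalization (adjusted p = 0.0923 and 0.501) and Bmp1 and Tmem38b not after centring on the 75th percentile (0.208 and 0.104). Plod3 (1.33 ± 0.43) and P3h1 (1.21 ± 0.51) did not pass (adjusted p = 0.0746 and 0.15).

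Of 19 measured partners of Runx2 and Sp7 in transcription, 7 were higher and 0 lower in condyle, 2 higher and 1 lower in fossa, and 6 higher and 0 lower in condyle than in fossa; after quantile normalization the last count was 2 higher and 0 lower, and after centring on the 75th percentile 3 higher and 4 lower. Higher in condyle than whole body were Zfp521, a zinc finger antagonist of Runx2 (2.08 ± 0.46, SE), Dlx5, a homeobox activator of Sp7 (at least 2.12-fold), the cartilage factor gene Sox9 (1.97 ± 0.33) and Twist1, which restrains Runx2 (1.88 ± 0.27). Zfp521 was higher by 2.17 ± 0.46 in condyle than in fossa and Cbfb, the partner that strengthens DNA binding by Runx2, by 1.20 ± 0.24, calls lost after quantile normalization (adjusted p = 0.0718 and 0.197). In fossa, Twist1 was higher by 1.11 ± 0.27 and Hand2 was at least 3.12-fold lower (above background on 2 fossa arrays), while Vdr, the vitamin D receptor gene, differed by 2.07 ± 0.74 (adjusted p = 0.0965) and Atf4 by 0.85 ± 0.26 (adjusted p = 0.0635). Vdr read 7.07 on condyle array 1, 6.31 on fossa array 2 and 4.10 to 5.55 on the other joint arrays.

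Of 15 measured maturation genes of osteoblasts and osteocytes, 3 were higher in condyle, 5 higher in fossa and 2 lower in condyle than in fossa, with none in the other direction as deposited. After centring on the 75th percentile 6 were lower in condyle than in fossa, and 1 was lower in condyle than in whole body. Pth1r, the parathyroid hormone receptor gene, was higher by 2.71 ± 0.49 (SE) in condyle (adjusted p = 0.0144) and 3.10 ± 0.49 in fossa (adjusted p = 0.00602). Panx3, a channel gene of cartilage and bone, was higher by 3.92 ± 0.72 in condyle (adjusted p = 0.0153) and 2.67 ± 0.72 in fossa. Ank, a transporter gene that governs extracellular pyrophosphate, was higher by 2.50 ± 0.62 in condyle (adjusted p = 0.0398), a call lost with quantile normalization (adjusted p = 0.103). Alpl and Ibsp, whose values are given above, were not called in condyle. The medians of the 15 genes were 1.21 in condyle, 1.23 in fossa and -0.39 between them. The 2 genes lower in condyle than in fossa, Mepe and Sost, are products of osteocytes, the cells embedded in bone. Mepe was at least 2.28-fold lower (adjusted p = 0.0246). Sost was 1.86-fold lower with condyle set to its background limits (adjusted p = 0.0208), and was above background on 2 fossa arrays and no condyle array. Dmp1, an osteocyte matrix gene, read 9.69, 5.70 and 6.44 in condyle, 8.25, 10.94 and 10.70 in fossa and 4.32, 4.08 and 4.23 in whole body, again with condyle array 1 and fossa array 2 the highest of their groups. Its difference passed in fossa, at 5.76 ± 1.13 (adjusted p = 0.0132), and not in condyle, at 3.07 ± 1.13 (adjusted p = 0.128). Phex (-2.01 ± 1.52) and Mmp13 (-1.62 ± 1.35) did not pass between condyle and fossa (adjusted p = 0.413 and 0.46).

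Of 13 other fibrillar and fibrous matrix genes, 6 were higher in condyle and 5 in fossa, with none lower. After centring on the 75th percentile the counts were 7 and 6, with 1 lower in condyle. The largest differences were those of the type VI collagen genes Col6a1 (3.41 ± 0.38, SE, in condyle and 2.32 ± 0.38 in fossa) and Col6a2 (2.87 ± 0.26 and 2.30 ± 0.26) and of the biglycan gene Bgn (3.09 ± 0.31 and 2.21 ± 0.31). Tnc differed by 1.74 ± 0.61 in fossa (adjusted p = 0.0893). Between condyle and fossa 2 of 13 were higher in condyle, close to the share of all genes, Col12a1 (1.27 ± 0.31) and Col6a3 (1.09 ± 0.26), neither after quantile normalization (adjusted p = 0.338 and 0.383).

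Among 14 enzymes of sphingomyelin and ceramide, the pathway of Smpd3, 4 were higher in condyle and 1 in fossa; the former count was 2 both after quantile normalization and after centring on the 75th percentile. The ceramide synthase gene Cers5 was higher by 1.60 ± 0.18 (SE) in condyle and 0.69 ± 0.18 in fossa. Sgms2, which makes sphingomyelin, differed by 2.35 ± 0.99 and 2.50 ± 0.99 (adjusted p = 0.175 and 0.125), and read 8.43 on condyle array 1 and 9.15 on fossa array 2 against 5.44 to 7.01 on the other joint arrays. Between condyle and fossa 3 were higher in condyle (Sgpl1, Cers5 and Cers2), none of them after quantile normalization (adjusted p = 0.0699, 0.413 and 0.56). Among 13 relatives of Ifitm5 and Sparc, 2 were higher in condyle, Ifitm2 (1.77 ± 0.42, adjusted p = 0.0811 after quantile normalization) and Fstl1 (1.59 ± 0.29). In fossa limma called 0, and 2 had an unadjusted p under 0.05, as had 6062 of all 18193 genes. After centring on the 75th percentile 2 were higher and 3 lower in condyle.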

How the data were processed

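The deposited values are linear intensities of 45101 probe sets on 9 Affymetrix mouse arrays, 3 each of condyle, fossa and whole body. The authors' background correction, normalization and probe summary are not given in the sources used here, and the submitters' processing notes name limma without a version. The deposited scaling was kept and log2 of the intensity was taken, with values under 1 set to 1. Symbols came from the platform annotation: 34945 probe sets had 1 symbol, 932 several and 9160 none. A gene was read by its probe set with the highest mean over the 9 arrays, giving 18193 genes. Groups were compared with limma 3.58.1 in R 4.3.3 (lmFit and eBayes, all 9 arrays, Benjamini-Hochberg adjusted p under 0.05), and a second fit covered all 45037 probe sets that are not array controls. The script was tested on simulated data. Where the dimmer group had arrays at or under the background limit, a fold is given as a bound ("at least"), and log2 differences printed for such probe sets are as measured. No strict bound is given for Ifitm5 and Sost where fossa was brighter, since fossa array 1 was also under its limit. Named genes were the members with every probe set, up to 4 genes per list and comparison with the largest log2 difference in size, and the 3 nearest profiles of each member. Ibsp, Alpl, Mmp9, Ctsk, Tmem38b and Sost were named after their values were seen. The members and lists were chosen with earlier results of these data known. The alternatives were other scalings, filters, floors, probe set rules, fits and leaving out each array. The number of arrays limits the precision.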

Additional observations from a re-analysis of the deposited data

Results flagged for a closer look

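The probe set 1450748_at of Smpd3 differed between condyle and fossa by -0.64 on the log2 scale (limma across all probe sets, adjusted p = 0.00904), with means of 2.46 and 3.10, and it stands out because the joint tissues differ there while the brightest Smpd3 probe set gave 0.39 with the opposite sign. It exceeded its background limit on 1 of the 9 arrays, fossa array 2.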

How the results depend on the processing

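All 6 genes kept a positive difference from whole body in both tissues under all 20 settings, the deposited one included. The count called in condyle against whole body (1) was 0 with a common floor, after quantile normalization, with the mean of all probe sets, in the fit across all probe sets and with the replicate number as a block, 2 with median centring, without genes at background and with a trended robust prior, and 3 with 75th percentile centring, stayed at 1 but with Sp7 in place of Col1a1 when only the 2 groups were fitted, and ranged from 0 to 2 when 1 array was left out. In fossa against whole body (2) it was 1 with the mean of all probe sets and ranged from 1 to 3 without 1 array, and the replicate block left it at 2. Between condyle and fossa (0) it was 1 (Col1a2) with 75th percentile centring and 0 to 1 without 1 array. The count with any difference among the groups (2, where 28.1% of all genes were called) was 1 with the mean of all probe sets, 0 with the replicate block and 0 to 4 without 1 array. The labels do not say that the numbers pair the arrays. Correlations of same-numbered arrays, taken on deviations from group means, ran from -0.446 to 0.147, which does not settle whether such arrays share an embryo. Reversed signs all concerned condyle against fossa: Smpd3 was -0.29 with quantile normalization, -0.27 with 75th percentile centring, -0.11 with the mean of all probe sets and from -0.42 (without fossa array 1) to 1.31 when 1 array was left out; Sp7 was -0.029 with quantile normalization; Sparc was -0.31, -0.37 and -0.18 under the first 3 of these, and from -0.48 (without condyle array 1) to 0.82 when 1 array was left out, with -0.06 without fossa array 1. The cause was not tested.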
